A study of Homo sapiens with 2 samples.

Results

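The transcription factor NRF2, its inhibitor KEAP1 and 8 of its antioxidant target genes were examined in lists of accessible chromatin from human 293T cells. The 10 genes, NFE2L2 (which encodes NRF2), KEAP1, GCLC, GCLM, SLC7A11, TXNRD1, SRXN1, NQO1, HMOX1 and OSGIN1, were taken by name from the 20033 protein-coding genes of GENCODE 44, an annotation of the GRCh38 build. The choice used gene names and no threshold on the peaks, but it was made with earlier results of these data known. ATAC-seq, in which the Tn5 transposase cuts DNA that nucleosomes leave exposed, had been carried out on 50000 control cells and on 50000 cells grown for 12 h with 0.5 mM methylglyoxal (MGO), a reactive by-product of glycolysis that forms adducts on proteins and DNA. The 293T line derives from human embryonic kidney and carries the SV40 large T antigen, and both libraries came from this single line. For the control cells a label names PBS, while the protocol describes a change to fresh medium without any addition. With 1 library analysed for each condition, no difference below has a replicate check, no test was made, and the 95% intervals cover counting error only.

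NRF2 is held at a low level in unstressed cells, because KEAP1, an adaptor of the CUL3 ubiquitin ligase, presents it for degradation. Electrophiles and oxidants modify cysteines of KEAP1, NRF2 then accumulates, pairs with a small MAF protein and binds antioxidant response elements (AREs) near its target genes. These targets make glutathione, keep thioredoxin and peroxiredoxins reduced, and remove quinones and heme, and they are known to respond to reactive carbonyls. The core of an ARE is written TGACNNNGC, where N stands for any base. The form TGACTCAGC is searched here as the strict ARE. It is a special case of the core and also holds TGACTCA, the site of AP-1 factors, so the 3 motifs overlap.

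All deposited peaks were used, 36142 from control and 22884 from MGO cells, and each was described by its position, its width, the authors' fold enrichment over background and the authors' −log10 p. The latter also depends on the depth of the library. The authors had equalized the depth by random subsampling. How many reads support a given peak is not known from these lists. A peak was assigned to a gene when it lay within 1000 bp of any of its transcription start sites (TSSs), over the gene body, or within 50 kb of a TSS, and peaks of the lists were paired from 1 shared base. Of the genes used to check the cell type, PAX2 and VIM had a TSS peak in both lists and LHX1 had none. PTPRC, CD3E, ALB, CDH5 and PECAM1, which mark blood, liver and endothelium, had none in either list. The muscle gene MYOD1 had a peak within 1000 bp of a TSS in control only. That control peak overlapped an MGO peak lying farther from the TSS. The part of these marker peaks in the results below was not tested.

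The ARE matches that carry the comparison lay at HMOX1, GCLC and NQO1, and their reference sequences are printed first. All come from GRCh38, 5′ to 3′ along the forward strand. Capitals mark each whole match to the ARE core on either strand, so that a match on the reverse strand reads from its GC end. The GCLC stretch starts inside a further core match, at position -3107, which stays in small letters. Upstream of HMOX1, the heme oxygenase gene on the forward strand of chromosome 22, 4 core matches stood in a row at a spacing of 29 bp, and 3 of them were strict AREs. These occupied chr22:35372007-35372126, which belongs to no exon of HMOX1, and lay at positions -9073, -9044, -9015 and -8986 from the canonical HMOX1 TSS.
HMOX1 upstream cluster: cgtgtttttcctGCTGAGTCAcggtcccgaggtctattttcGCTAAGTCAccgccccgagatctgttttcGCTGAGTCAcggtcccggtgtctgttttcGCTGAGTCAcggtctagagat
At GCLC, on the reverse strand of chromosome 6, the strict ARE lay at chr6:53548207-53548269, just upstream of a distal TSS of the gene and within an intron of longer transcripts.
GCLC distal start: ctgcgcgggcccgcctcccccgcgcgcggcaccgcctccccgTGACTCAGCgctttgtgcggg
At NQO1, on the reverse strand of chromosome 16, the strict ARE lay at position -451 from the canonical TSS, in chr16:69726948-69727027 and in an exon of the divergent transcript NQO1-DT.
NQO1 upstream edge: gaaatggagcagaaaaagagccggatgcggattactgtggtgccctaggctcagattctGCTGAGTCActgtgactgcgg
The HMOX1 and GCLC stretches were inside a peak in both libraries, whereas the NQO1 match was outside the promoter peak in both.

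All 10 genes had a TSS peak in the control list and all 10 had a TSS peak in the MGO list (Wilson interval 72.2 to 100%). Of all protein-coding genes, 67.3% had a control TSS peak and 63.9% an MGO TSS peak. The 10 genes had 14 control TSS peaks, of which 12 overlapped an MGO peak, or 85.7% (60.1 to 96.0%), close to the 87.7% of all control peaks at protein-coding TSSs. The exceptions were an upstream start of NFE2L2 and a downstream start of TXNRD1. No gene among the 10 had a TSS peak under MGO alone.

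**Figure D1:**
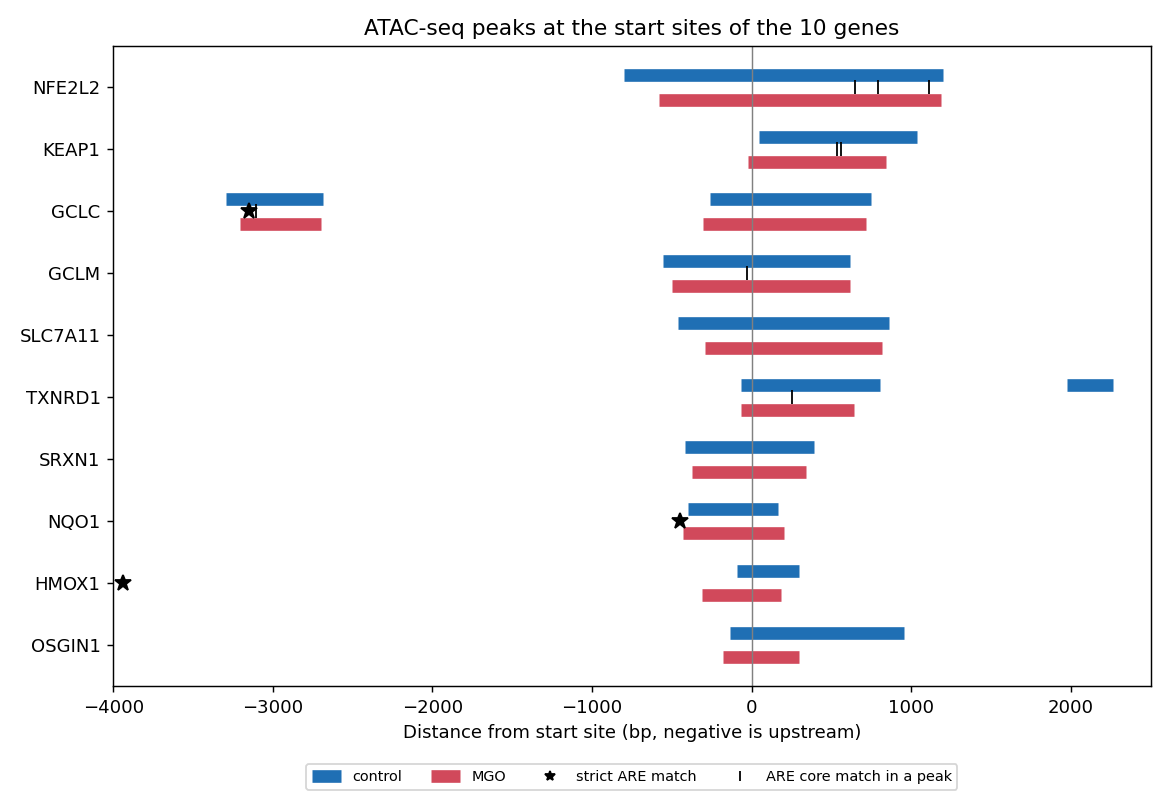
Peaks within 1000 bp of a TSS of the 10 genes, control above and MGO below, against distance from the start site in bp (the canonical TSS, or for TXNRD1 the start at its strongest peak); stars mark strict AREs and short bars ARE core matches under a peak. Each gene has a peak of both libraries at the start, the OSGIN1 peak is much shorter on its downstream side under MGO, and the strict ARE of NQO1 lies just beyond both of its peaks.

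At the regulators, the main NFE2L2 promoter stayed in a broad peak in both lists, which also lay within 1000 bp of a TSS of ENSG00000222043. It covered the canonical TSS at chr2:177264727 (reverse strand) and ran in control over chr2:177263526-177265529, which is 2004 bp with a fold enrichment of 3.72 and a −log10 p of 13.5. The MGO peak at chr2:177263538-177265305 measured 1768 bp with a fold enrichment of 3.61 and a −log10 p of 11.5. It lay entirely inside the control peak, and most of the difference in width was on the upstream side, where the MGO edge was at -224 bp relative to the control edge (inward is negative). Both peaks held the same number of ARE core matches, 3, all downstream of the TSS in non-coding or UTR exon sequence and none of the strict form.
NFE2L2 position +1110: ttggcttccgTGACAGCGCtcggttggcc
NFE2L2 position +790: gagagatggaTGACTTCGCaaagccgcgc
NFE2L2 position +650: agcggccccgTGACTAGGCacatttttgc

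NFE2L2 has 65 annotated transcripts with 44 TSS positions, and some of these begin far upstream. A control peak at chr2:177313863-177315533 (1671 bp, fold enrichment 3.30, −log10 p 4.86) covered 3 such starts and had no MGO peak. It also lay within 1000 bp of a TSS of ENSG00000213963. It had the lowest GC content of the TSS peaks of the 10 genes, 38.0%, against a median of 64.0%. The farthest starts, 21 in number, lay under a peak at chr2:177392406-177393639 in control (1234 bp, −log10 p 6.60) and at chr2:177392419-177393272 under MGO (854 bp, −log10 p 7.10). That peak is also the promoter of AGPS, a gene of ether lipid synthesis that is transcribed the other way, so it cannot be assigned to NFE2L2 alone. In the introns, a weak control peak at chr2:177254578-177254861 (284 bp) was matched by an MGO peak of 498 bp at chr2:177254588-177255085, and another at chr2:177224525-177225290 (766 bp, −log10 p 3.46) was not matched. Beyond the 3′ end, the HNRNPA3 promoter kept a strong peak, with a −log10 p of 15.2 in control over chr2:177212171-177213366 and of 15.5 under MGO over chr2:177212243-177213458.

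KEAP1, on the reverse strand of chromosome 19 with its canonical TSS at position 10503356, had the lowest −log10 p of the TSS peaks of the 10 genes in control. Its peak ran over chr19:10502322-10503312 (991 bp, fold enrichment 2.85, −log10 p 4.37) in control and over chr19:10502512-10503378 (867 bp, 2.77 and 4.54) under MGO. The MGO peak covered the canonical TSS, whereas the control peak ended 44 bp downstream of it. Both contained a pair of ARE core matches in exon sequence, and neither contained a strict ARE.
KEAP1 position +558: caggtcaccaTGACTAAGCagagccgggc
KEAP1 position +535: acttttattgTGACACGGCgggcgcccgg
The neighbouring peaks were at the exon of PDE4A (chr19:10461152-10461663 in control, 512 bp, and chr19:10461114-10461667 under MGO, 554 bp) and at the start of ATG4D, an autophagy protease. The latter was wider under MGO, 1097 bp (chr19:10543719-10544815) against 558 bp (chr19:10543772-10544329), with a −log10 p of 6.42 against 4.73. A further control peak at ATG4D, chr19:10552514-10553243 (730 bp, −log10 p 4.86), had no MGO peak.

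Among the genes of glutathione synthesis, GCLC and GCLM encode the catalytic and the modifier subunit of glutamate-cysteine ligase, which carries out the rate-limiting step. GCLC had a pair of TSS peaks in each list. The proximal peak, over the canonical TSS at chr6:53545101, covered chr6:53544352-53545363 in control (1012 bp, fold enrichment 3.40, −log10 p 12.3) and chr6:53544385-53545405 under MGO (1021 bp, 3.64 and 13.6). The distal peak covered chr6:53547787-53548395 in control (609 bp, 2.65 and 6.83) and chr6:53547796-53548307 under MGO (512 bp, 2.69 and 6.79). It was the distal peak that held the strict ARE printed above, and the MGO peak still covered it although its edge on that side was at -88 bp relative to control. A core match lay beside it.
GCLC position -3107: ccccgccacgTGACTGCGCgggcccgcct
Farther away, an exon of KLHL31 lay under a peak of 1198 bp in control (chr6:53651320-53652517, fold enrichment 4.33) and of 895 bp under MGO (chr6:53651321-53652215, fold enrichment 5.33). The intergenic control peak chr6:53493107-53493618 (512 bp, −log10 p 4.62) had no MGO peak.

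GCLM had the strongest promoter peak of the 10 genes in control by −log10 p. It ran over chr1:93908816-93909982 (1167 bp, fold enrichment 4.23, −log10 p 17.6) in control and over chr1:93908816-93909929 (1114 bp, 3.86 and 13.2) under MGO, around the canonical TSS at position 93909430 of the reverse strand. The downstream edges were at the same base. An ARE core match lay at position -30, inside both peaks.
GCLM position -30: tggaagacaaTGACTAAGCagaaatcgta
The DNTTIP2 promoter, the other peak near GCLM, measured 1218 bp in control (chr1:93878638-93879855) and 792 bp under MGO (chr1:93878619-93879410). GCLM was the only gene of the 10 in which every control peak had an MGO peak.

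SLC7A11 encodes xCT, the antiporter that brings in cystine for glutathione. Its promoter peak, over the TSS at chr4:138242349 (reverse strand), covered chr4:138241485-138242811 in control (1327 bp, fold enrichment 4.08, −log10 p 12.2) and chr4:138241529-138242640 under MGO (1112 bp, 3.29 and 6.50). The −log10 p differed more between the libraries here than at any other TSS peak of the 10 genes. At 44.3% in control, its GC content was low for a promoter peak, and it held no ARE core match. An intronic control peak at chr4:138185812-138186261 (450 bp, −log10 p 3.61) contained a core match and had no MGO peak.

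TXNRD1 encodes cytosolic thioredoxin reductase, and SRXN1 encodes sulfiredoxin, which reactivates over-oxidized peroxiredoxins. The canonical TSS of TXNRD1 at chr12:104215779 (forward strand) had no peak in either list. Open chromatin was instead found at internal starts, over chr12:104286617-104287490 in control (874 bp, fold enrichment 3.44, −log10 p 9.22) and over chr12:104286613-104287327 under MGO (715 bp, 3.50 and 8.81). This peak covered 12 transcript starts in control and 11 under MGO, and it included an ARE core match in both lists.
TXNRD1 core match: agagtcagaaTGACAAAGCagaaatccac
The adjoining control peak at chr12:104288659-104288949 (291 bp, −log10 p 4.56), over 2 more starts, had no MGO peak. At SRXN1, the promoter peak over the TSS at chr20:653200 (reverse strand) covered chr20:652810-653615 in control (806 bp, fold enrichment 3.82, −log10 p 8.47) and chr20:652857-653572 under MGO (716 bp, 3.64 and 8.19). It was shorter by a similar amount on both sides and contained an AP-1 site but no ARE core. Control peaks at chr20:645485-645929 (445 bp) and chr20:641312-641709 (398 bp), both beyond the 3′ end of SRXN1, had no MGO peak.

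NQO1 encodes a quinone reductase that is widely used as a readout of NRF2. Its promoter peak kept its place but was much weaker by the authors' values under MGO. The same peak also lay at a TSS of the divergent NQO1-DT, so it cannot be assigned to NQO1 alone. In control it covered chr16:69726393-69726957 (565 bp) with a fold enrichment of 3.92, a −log10 p of 7.90 and a −log10 q of 5.39. Under MGO it covered chr16:69726357-69726990 (634 bp) with a fold enrichment of 2.70, a −log10 p of 3.85 and a −log10 q of 1.495. Among TSS peaks of protein-coding genes in the same list, it stood at percentile 46.0 of −log10 p in control and at percentile 3.81 under MGO. The fold enrichment ratio of 0.689 was the lowest of the 12 TSS pairs. Peaks with a q-value under 0.01 (a −log10 q of at least 2) are the ones used in the study's methods, and the MGO peak of NQO1 is below that limit. NQO1 was thereby the gene of the 10 without an MGO TSS peak at that limit.

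The strict ARE of NQO1 lay beyond the upstream end of both peaks. It was separated by 49 bases from the control peak and by 16 bases from the MGO peak, which extended 33 bp further upstream than the control peak. The NOB1 promoter nearby had a peak of 478 bp in control (chr16:69754573-69755050) and of 568 bp under MGO (chr16:69754525-69755092), with a −log10 p of 5.48 and 5.46. A control peak at WWP2, chr16:69761805-69762833 (1029 bp, −log10 p 4.79), held 3 core matches and had no MGO peak.

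HMOX1 encodes heme oxygenase 1, the enzyme that opens the heme ring, and its canonical TSS is at chr22:35381096. The promoter peak was short in both libraries and differed in position. In control it covered chr22:35381003-35381392 (390 bp, fold enrichment 3.06, −log10 p 5.22), and under MGO chr22:35380788-35381283 (496 bp, 3.10 and 6.04). The upstream edge lay 215 bp further out under MGO and the downstream edge was at -109 bp, that is further in, so that 72.1% of the control peak was shared.

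The upstream ARE cluster of HMOX1, shown above, lay under a peak that ended 8416 bp from the canonical TSS in control. This peak covered chr22:35371774-35372680 in control (907 bp, fold enrichment 2.80, −log10 p 4.97) and chr22:35371781-35372655 under MGO (875 bp, 2.56 and 4.41), and overlapped an exon of the lncRNA ENSG00000282602. Each 29-base window below is read along the strand of its match.
HMOX1 position -9073: ctcgggaccgTGACTCAGCaggaaaaaca
HMOX1 position -9044: ctcggggcggTGACTTAGCgaaaatagac
HMOX1 position -9015: accgggaccgTGACTCAGCgaaaacagat
HMOX1 position -8986: ctctagaccgTGACTCAGCgaaaacagac
All 4 matches were under the deposited peak of both libraries, but the MGO peak, with a −log10 q of 1.994, was just below the limit of 2 that corresponds to the q-value of the study's methods, and at that limit they were under the control peak alone. Another strict ARE, at position -3936, was under no peak.
HMOX1 position -3936: gaggcactggTGACTCAGCaaaatctagc
Of the remaining peaks, the one at chr22:35350621-35351401 (781 bp, −log10 p 5.68) was paired with chr22:35350869-35351144 (276 bp, 4.17) in the MGO list. The MCM5 promoter had a peak of 699 bp in control (chr22:35399903-35400601, −log10 p 7.71) and of 596 bp under MGO (chr22:35399980-35400575, 5.70). The control peak chr22:35364079-35364502 (424 bp, −log10 p 5.33) had no MGO peak.

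OSGIN1, an oxidative stress-induced growth inhibitor gene on the forward strand of chromosome 16, had the largest difference in the width of a TSS peak. Its control peak covered chr16:83953106-83954197 (1092 bp, fold enrichment 2.75, −log10 p 5.19) and its MGO peak chr16:83953062-83953540 (479 bp, 2.89 and 5.77). The upstream edges were within 44 bp of each other, and on the downstream side the MGO edge was at -657 bp relative to the control edge. The canonical TSS at position 83953240 was inside both peaks, and their fold enrichments were similar. The MLYCD promoter peak, 1001 bp in control (chr16:83898755-83899755) and 945 bp under MGO (chr16:83898755-83899699), had a −log10 p of 13.9 and of 7.26, the largest difference of the 23 pairs. A control peak in an exon of MLYCD, chr16:83926683-83927321 (639 bp, −log10 p 5.17), had no MGO peak.

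Over the whole loci, 34 control and 23 MGO peaks were found, a ratio of 0.676 (exact binomial interval 0.380 to 1.18), with 0.633 for the complete lists. Control peaks covered 28258 bp and MGO peaks 18600 bp. Of the 34 control peaks, 11 had no MGO peak, or 32.4% (19.1 to 49.2%), where 50.1% of the complete control list had none. These 11 were spread over 9 of the 10 genes, and 55.8% of all protein-coding genes had such a peak in their locus. The 2 sets of loci were not matched, here or for the MGO-only peaks below. Starts that lie far apart, as at NFE2L2, make a locus longer. All 10 genes had a control TSS peak, against 67.3% of protein-coding genes. In the opposite direction, 0 of the 23 MGO peaks lacked a control peak (Wilson upper bound 14.3%), where 21.1% of the complete MGO list did. The 2 sets differ in makeup. Of the 23, 12 were at TSSs of the 10 genes and 7 at TSSs of other genes, while 9668 of the 22884 MGO peaks lay away from every TSS. A share for TSS peaks alone is not given here. An MGO-only peak in the locus was found for 0 of 10 genes (upper bound 27.8%), where 21.3% of protein-coding genes had one.

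**Figure D2:**
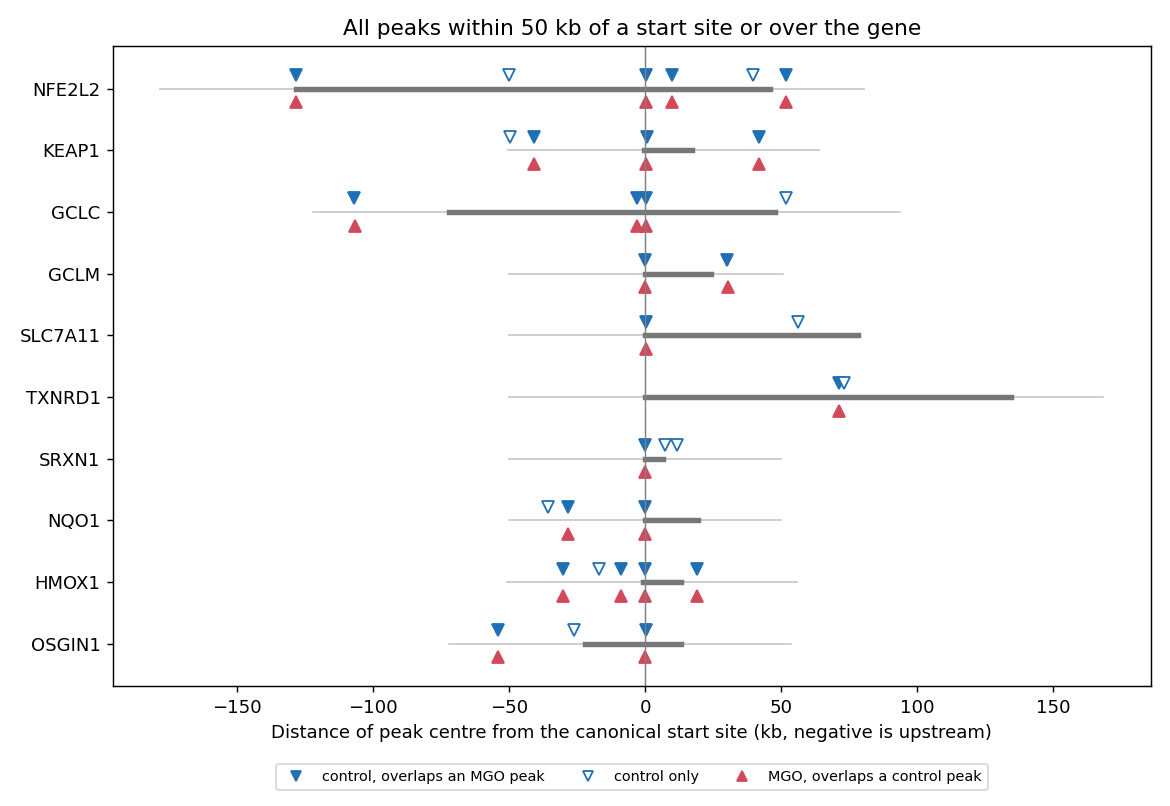
All peaks assigned to the 10 genes, at the distance of the peak centre from the canonical start site in kb, with control above and MGO below each gene; dark bars are gene bodies, thin lines the searched loci, and open triangles control peaks without an MGO peak. The 11 open triangles are spread over every gene but GCLM, and every MGO triangle is filled.

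Control peaks with and without an MGO peak were compared by position and by strength. At TSSs of the 10 genes, 2 of 14 control peaks had no MGO peak, and at TSSs of other genes 2 of 9. Away from TSSs, 2 of 3 in the gene bodies and 5 of 8 elsewhere had none, so that 4 of 11 were kept (36.4%, 15.2 to 64.6%), beside 25.4% of all control peaks away from TSSs. The 11 peaks without an MGO peak had a −log10 p of 3.46 to 5.33 (median 4.79) and a median width of 512 bp. The 23 with an MGO peak had a −log10 p of 3.83 to 17.6 (median 7.71) and a median width of 907 bp. The value of 5.33 is that of the strongest unmatched peak, so that the 16 control peaks above it had an MGO peak by construction. Of the 18 at or below it, 7 had. In the complete control list, 82.7% of the 17085 peaks above this value and 20.4% of the 19057 at or below it overlapped an MGO peak.

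**Figure D3:**
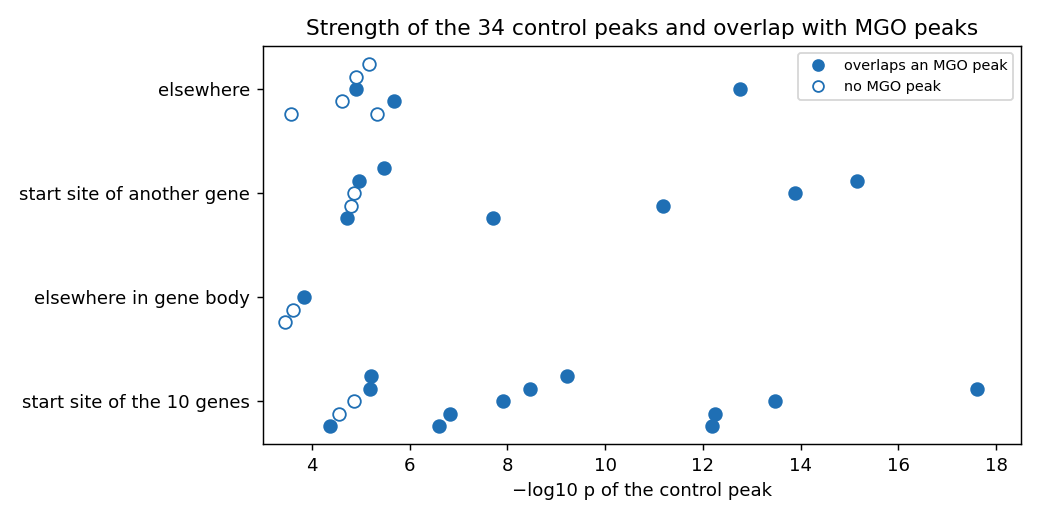
The authors' −log10 p of each of the 34 control peaks, grouped by where the peak lies, with filled points for peaks that overlap an MGO peak and open points for those that do not. All 11 open points lie at or below 5.33, in each of the 4 positions.

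The TSS peaks of the 10 genes were also set beside those of all protein-coding genes ranked by −log10 p in 5 groups of equal size. Of the 5 that fell into the weakest group, 3 had an MGO peak, where the whole group had 53.1%. In the next groups, 2 of 2, 3 of 3, 3 of 3 and 1 of 1 had, where the shares over all protein-coding genes were 88.2%, 97.4%, 99.6% and 99.96%. The counts at the 10 genes were close to that at other promoters of like strength.

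Where both libraries had a peak at a TSS, the MGO peak was the shorter in most cases. Of 12 such pairs, 9 had the narrower peak under MGO (Wilson interval 46.8 to 91.1%), where 68.0% of pairs at protein-coding TSSs had. The median ratio of widths was 0.879 at the 10 genes and 0.900 over protein-coding TSSs, whose middle range (quartiles) was 0.747 to 1.05. Fold enrichment was lower under MGO in 6 of 12 (25.4 to 74.6%), where 74.7% of all such pairs were lower. The median ratio of fold enrichment was 0.992, against 0.921 over protein-coding TSSs.

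The edges were compared along the direction of transcription. On the downstream side, the MGO peak ended further in at 10 of 12 pairs (83.3%, 55.2 to 95.3%). Of pairs at protein-coding TSSs of 1 strand, 57.7% did. On the upstream side the MGO peak did so at 6 of 12 (25.4 to 74.6%), where 71.3% of pairs at such TSSs did. The 12 pairs were not limited to 1 strand and include the one at the AGPS promoter, which is transcribed the other way. Its edges were at -367 bp upstream and -13 bp downstream along NFE2L2. The median downstream shift was small, -38.5 bp with inward shifts counted as negative, and OSGIN1 at -657 bp, KEAP1 at -190 bp and TXNRD1 at -163 bp stood out from the rest. With 12 pairs the intervals were wide, and both shares of the TSSs of 1 strand were inside them.

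Per gene, the length under a peak within 1000 bp of a TSS was compared as a ratio of MGO to control. It was below 1 for 8 of 10 genes, and 67.6% of the 12545 protein-coding genes with peaks in both lists were below 1. The lowest ratios were 0.439 at OSGIN1, 0.541 at NFE2L2 and 0.614 at TXNRD1, which were at percentiles 3.60, 7.52 and 11.8 of those genes. At NFE2L2 and TXNRD1 the unmatched control TSS peak, of 1671 and 291 bp, made up most of the difference. Coverage was 4850 bp in control and 2622 bp under MGO at NFE2L2, and 1165 and 715 bp at TXNRD1. Both unmatched peaks were weak, with a −log10 p of 4.86 and 4.56. The middle of the order was held by SLC7A11 at 0.838, KEAP1 at 0.875, SRXN1 at 0.888, GCLC at 0.946 and GCLM at 0.955, all between the quartiles of protein-coding genes. Ratios above 1 were found at NQO1, 1.12, and HMOX1, 1.27, at percentiles 82.9 and 90.8. These 2 enzymes of quinone and heme removal had the shortest TSS coverage in control, 565 and 390 bp, and NQO1 had a wider but weaker peak. The median of the 10 genes, 0.882, was near the median of all, 0.903. Summed over the 10 genes, 13974 bp were covered in control and 10288 bp under MGO, a ratio of 0.736, or 0.840 without NFE2L2. Summed over the TSS windows of all protein-coding genes, the ratio was 0.856.

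**Figure D4:**
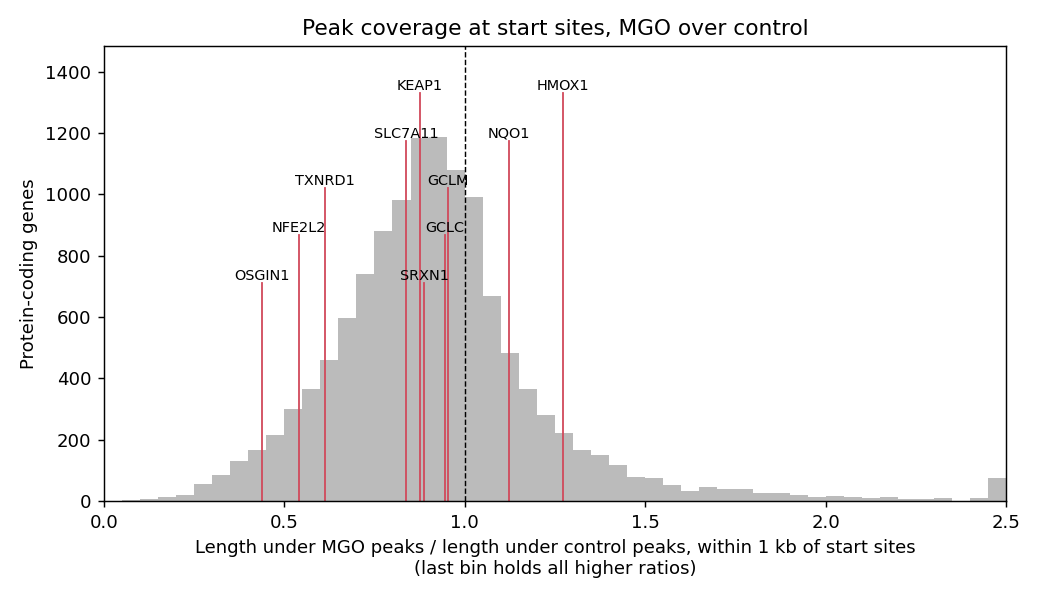
Number of protein-coding genes (grey bars) by the ratio of the length under MGO peaks to the length under control peaks within 1000 bp of their start sites, with the 10 genes as red lines; the dashed line marks a ratio of 1. OSGIN1 (0.439), NFE2L2 (0.541) and TXNRD1 (0.614) lie at the low end, HMOX1 (1.27) and NQO1 (1.12) on the high side, and the other 5 in the middle of the distribution.

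Within the loci of the 10 genes, the strict ARE occurred 27 times in the reference, and 4 of these were under a control peak. The same 4, 3 in the HMOX1 cluster and 1 at GCLC, were under an MGO peak. At a −log10 q of at least 2 the MGO peak over the HMOX1 cluster dropped out, and 1 of the 4, at GCLC, was still under an MGO peak. Over chromosomes 1 to 22, X and Y, 33413 strict AREs were found, 1.53% of them under a control peak and 1.33% under an MGO peak, and 49.4% of those under a control peak were also under an MGO peak. The 23 strict AREs of the loci outside peaks included 2 within 100 bp of a peak, at NQO1 and beside DNTTIP2, and 21 that were 3173 bp or more away. The looser ARE core occurred 529 times in the loci, 24 times under a control peak and 17 times under an MGO peak, and all 17 were among the 24. Most of the 7 that were under control peaks alone belonged to the unmatched peaks at WWP2 (3), ATG4D, MLYCD and the SLC7A11 intron. The last was at the edge of the HNRNPA3 peak, which began further in under MGO.

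The ARE core was counted in the promoter peaks of these genes and in those of all protein-coding genes. A core match was in 5 of 14 control TSS peaks (35.7%) and in 37.5% of all control peaks at protein-coding TSSs, and in 5 of 12 MGO TSS peaks (41.7%) and 36.3% of all. Per kb of peak there were 0.641 core matches at the 10 genes and 0.444 at all protein-coding TSSs in control, and 0.875 and 0.456 under MGO. At the 10 genes these were 9 matches in 5 peaks in both lists. The higher density under MGO there thus comes from the shorter total length of the MGO peaks. The peaks at NFE2L2, KEAP1, GCLC, GCLM and TXNRD1 held these 9 matches. A strict ARE was in 1 of 14 (7.14%), beside 1.28% of all. AP-1 sites were in 4 of 14 control TSS peaks (28.6%), at NFE2L2, GCLC, SRXN1 and OSGIN1, beside 8.98% of all, and in 3 of 12 under MGO beside 8.92%. In the RefSeq promoters of GRCh38.p14, windows of 300 bases that end 50 bases after a start, 8 of the 10 genes were matched. A core match was in GCLM and TXNRD1 and in 13.3% of 35116 promoters, the strict form in none of the 8 and in 0.561% of all, and an AP-1 site in OSGIN1 and in 4.95% of all. A match is a stretch of letters only, and binding of NRF2 was not measured here.

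The wider pathway was described with 43 further genes. A TSS peak was found for 37 in control (86.0%, 72.7 to 93.4%) and for 36 under MGO (83.7%, 70.0 to 91.9%), and 36 had a peak in both lists. Over all protein-coding genes the shares were 67.3% and 63.9%. The exception was AKR1C3, an aldo-keto reductase, with a weak control peak of 417 bp at chr10:5094367-5094783 (−log10 p 3.51) and none under MGO. GPX2, AKR1B10, AKR1C1, AKR1C2, ABCC1 and ABCC3 had none in either list. By role, all 10 regulators (among them CUL3 and RBX1 of the KEAP1 ligase, the competitor BACH1 and the small MAF genes), all 5 heme and iron genes and all 6 NADPH genes had a peak in both. So did 9 of 10 thioredoxin and glutathione genes, and 6 of 12 detoxification genes. Of the 43 control TSS peaks of the wider list, 38 overlapped an MGO peak (88.4%, 75.5 to 94.9%), close to the 87.7% over all protein-coding TSSs.

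The median coverage ratio of the 36 wider genes with both peaks was 0.961, and 22 of the 36 were below 1, where the median over protein-coding genes was 0.903 and 67.6% were below 1. The genes whose ratio came nearest to the median of the 10 genes were IDH1, an NADPH-producing isocitrate dehydrogenase, at 0.876 (3425 bp in control and 3001 bp under MGO), TALDO1 of the pentose phosphate pathway at 0.858 (1066 and 915 bp), and the glutathione transferase GSTM3 at 0.910 (982 and 894 bp). The ends of the range, singled out after their values were seen, were the small MAF genes MAFG at 3.44 (497 and 1710 bp) and MAFK at 2.46 (688 and 1690 bp), which encode partners of NRF2, and PIR at 0.437 and MGST1 at 0.478. The highest −log10 p under MGO was below that in control at both, 4.08 against 5.47 for MAFG and 4.05 against 4.28 for MAFK, which had 1 TSS peak in control and 2 under MGO.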

How the data were processed

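ATAC-seq peak lists of 1 control and 1 MGO library of 293T cells were analysed. The authors aligned reads to GRCh38 with BWA-MEM (0.7.15), removed mitochondrial and multi-mapping reads, equalized depth by random subsampling and ran MACS2 in broad mode on each library. For each peak the deposited lists give the ratio of signal to background (fold enrichment), a p-value and a q-value as −log10, and a score, which was not used. The lists contain no counts and hence no depth per peak. Groups were taken from the treatment labels. All 36142 and 22884 peaks were kept, since the lists reach down to a −log10 q of 1.01 in both, and all coordinates were inside the GRCh38 sequences. TSSs were transcript starts of GENCODE 44, and coordinates are 1-based.

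The 10 genes, the wider list, the marker genes and the rules were chosen with earlier results of these data known. Some marker genes are not reported here. By rule, all 10 genes and all of their peaks are described, together with wider genes that have a TSS peak in 1 list or in neither and the 3 whose coverage ratio is nearest to the median of the 10. Peaks were paired from 1 shared bp. Shares have 95% Wilson intervals and the ratio of peak numbers an exact binomial interval. Motifs were searched on both strands of GRCh38. Pairs at protein-coding TSSs were 1 to 1 overlaps, and their edges were compared where the TSSs were of 1 strand. That limit was not set for the pairs of the 10 genes. The alternatives were a −log10 q of at least 2 or 5, equal numbers of peaks, reciprocal overlap of 50%, other windows, canonical TSSs and the strict ARE. Python 3.11.15, numpy 2.4.6, pandas 2.3.3, scipy 1.17.1 and matplotlib 3.10.9 were used. The counting steps were tested on simulated data, and overlaps were checked with bedtools 2.31.1, which gave the same 18031 overlapped control peaks.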

Additional observations from a re-analysis of the deposited data

How the results depend on the processing

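Of 56 alternative values, 46 stayed within the tolerance (1.5 times for a count, 10% for the coverage ratio) and 10 moved. At a −log10 q of at least 5, 7 of the 10 genes had a control TSS peak and 5 had an MGO TSS peak. Of 7 control TSS peaks 5 were overlapped, and 4 of 12 control peaks of the loci had no MGO peak. Of the 43 wider genes, 26 had a control TSS peak and 21 an MGO TSS peak. The control counts of 7 and 26 genes stayed within the tolerance. Shares over all protein-coding genes at this limit are not given here. With equal numbers of peaks, 1 MGO peak of the loci had no control peak (the NFE2L2 intron peak), and with a reciprocal overlap of 50%, 2 (the OSGIN1 promoter and a distal HMOX1 peak). The coverage ratio of 0.736 became 0.828 with a TSS window of 500 bp, 0.879 with canonical TSSs only and 0.840 without NFE2L2, an alternative chosen after seeing the data. With the strict ARE in place of the core, 1 of 14 control TSS peaks held a match. At a −log10 q of at least 2, 11 of 30 control peaks of the loci had no MGO peak: 8 of those described in the report and 3 more, at the NQO1 promoter, the HMOX1 ARE cluster and a distal HMOX1 site, whose MGO peaks fell below the limit. The cause was not tested beyond how each alternative is built. No paired analysis was possible because each condition has 1 library here, and no replicate could be left out. The depth behind single peaks is unknown, so a missing peak means that none was listed, not that the site was closed.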
